A study of Mus musculus with 13 samples.

Results

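Oxidative phosphorylation is the step of respiration that turns the electrons taken from food into ATP. Complexes I to IV of the inner mitochondrial membrane pass electrons to oxygen while I, III and IV also pump protons, cytochrome c carries electrons between complexes III and IV, and complex V, the ATP synthase, uses the proton gradient to make ATP. Most of their subunits are encoded in the nucleus and imported. Several complex IV subunits exist as tissue isoforms, and striated muscle uses Cox6a2, Cox7a1 and Cox8b in place of the forms found in most other tissues. The family described here holds every gene whose symbol starts with Nduf, Uqcr, Sdh followed by a to d, Atp5, or Cox4 to Cox8, with Cycs and Cyc1. On the array 91 genes met this rule, through 114 probes, among 16593 named genes. Of these, 87 genes and 106 probes were detected on at least 2 arrays and could be tested, among 10992 genes tested in all.

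RNA came from caudal vertebral bone of mice aged 9 months, all on a C57BL/6x129Sv/B6 hybrid background. The arrays comprised 2 lesions of Prkar1a+/-Prkaca+/- mice (double heterozygotes), 3 lesions of Prkar1a+/- mice, 4 samples of bone from Prkaca+/- mice and 4 samples of bone from WT mice. Protein kinase A (PKA) is activated by cAMP; Prkar1a is the gene of its regulatory subunit RIα and Prkaca the gene of its catalytic subunit Cα. All Prkar1a+/- samples were lesions, and the effects of the lesion and of the Prkar1a allele therefore cannot be told apart. The labels number the samples but do not say whether they came from different mice, so the spread that p-values are set against is that between samples, which may be technical. The osteoblast markers tested were detected on all 13 arrays. Prkar1a itself lay between 10.95 and 11.40 in the lesions and between 12.49 and 12.70 in non-lesion bone on the normalised log2 intensity scale used throughout, a difference of -1.40. Prkaca averaged 9.44 ± 0.35 in double heterozygote lesions, 10.37 ± 0.54 in Prkar1a+/- lesions, 10.58 ± 0.30 in Prkaca+/- bone and 11.44 ± 0.12 in WT bone (SD, n = 2, 3, 4 and 4).

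The untested members were Ndufs1, Uqcrq, Cox7b2 and Cox8c, whose probes were detected on 0 arrays. Tested members comprised 33 of 34 complex I genes, all 3 complex II genes on the array (Sdhb, Sdhc and Sdhd), 8 of 9 complex III genes, 13 of 15 complex IV genes, the 3 muscle isoforms of complex IV, all 16 complex V genes, cytochrome c (Cycs), and all 10 assembly and related factors that the name rule takes in. The entry Ndufs5-ps is annotated as a pseudogene of a complex I subunit, so its values are uncertain.

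Most genes of the respiratory chain fell in the lesions. Of 87 tested members 69 fell, 3 rose and 15 did not pass (limma, adjusted p under 0.05), with a median log2 difference of -0.63 between lesion and non-lesion bone. Over all 10992 genes tested, 25.8% fell, 26.2% rose and the median difference was -0.01. In 40 members every lesion array lay below every non-lesion array, and in 3 members every lesion array lay above, where the shares over all genes were 13.2% and 14.9%. The 3 members that rose, Cox6a1, Cox6b2 and Cox8a, are all complex IV subunits with tissue isoforms. In whole tissue, fewer cells of a type and less RNA per cell cannot be told apart.

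**Figure D1:**
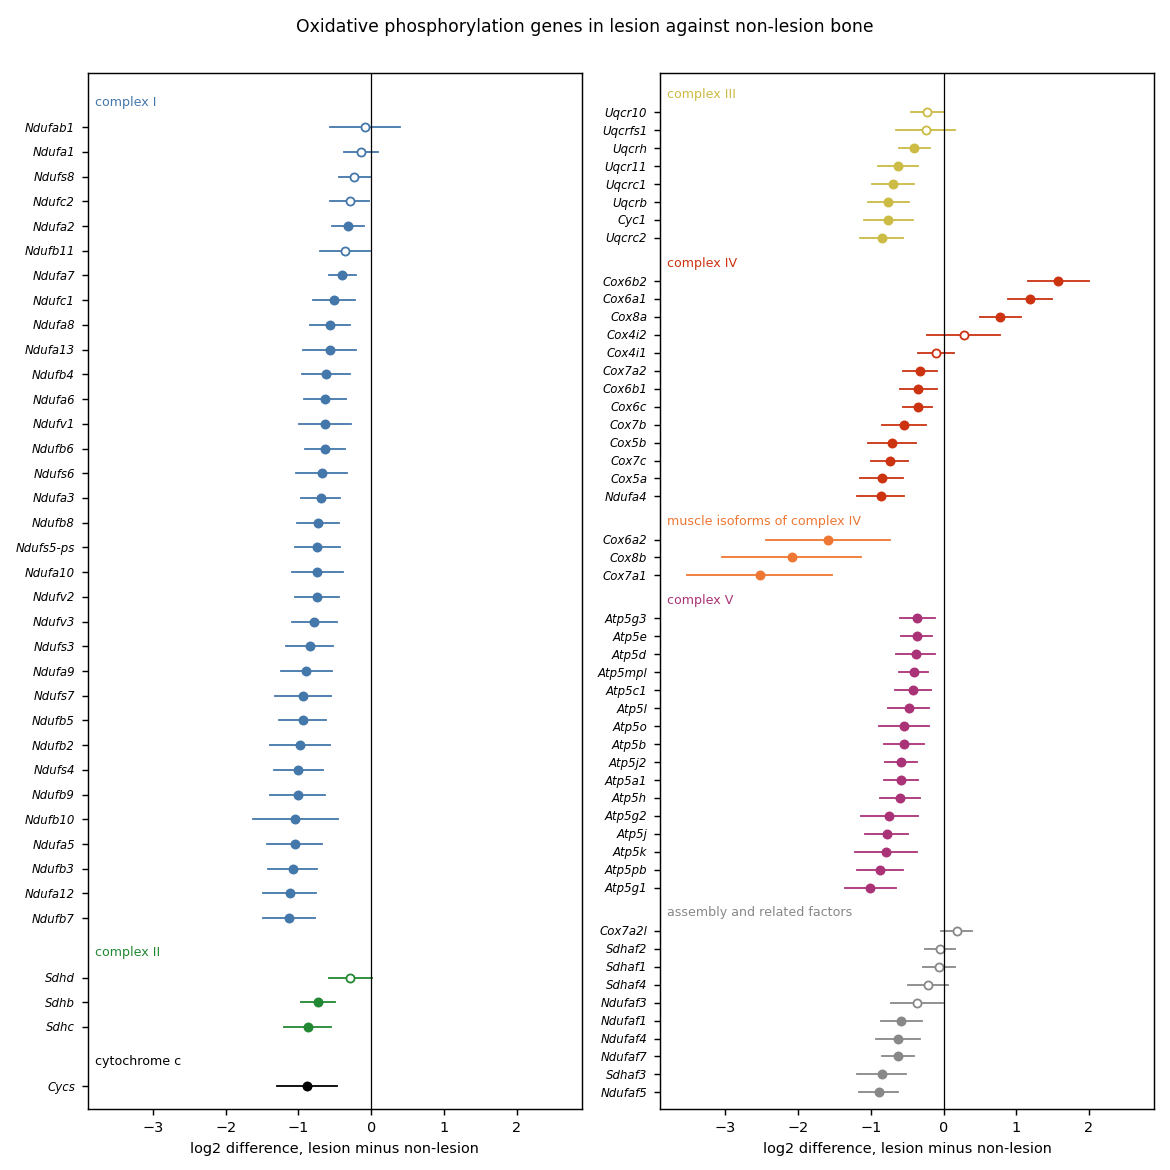
Log2 difference between lesion and non-lesion bone for each of the 87 tested members, grouped by complex, with 95% intervals (5 lesion against 8 non-lesion arrays). Filled points passed at an adjusted p under 0.05: 69 members lie left of 0, and Cox6b2, Cox6a1 and Cox8a lie right of it.

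Complex I, the NADH dehydrogenase through which most electrons enter the chain, had 28 of 33 members lower and 0 higher, with a median difference of -0.73. The largest falls were Ndufb7 (2.19-fold lower), Ndufa12 (2.18-fold lower) and Ndufb3 (2.11-fold lower), accessory subunits that surround the catalytic core. Ndufb7 lay at 8.19 and 8.51 in double heterozygote lesions and at 8.75, 8.17 and 7.88 in Prkar1a+/- lesions, against 9.57, 9.37, 9.50 and 9.31 in Prkaca+/- bone and 9.31, 9.01, 9.78 and 9.64 in WT bone. All lesions were below all non-lesion samples, and the difference was -1.13 ± 0.17 (SE, limma adjusted p = 0.000144). Ndufa12 ranged from 9.86 to 10.75 in lesions and from 10.91 to 11.59 in non-lesion bone, again without overlap. Among core subunits, Ndufs7, an iron-sulfur protein, fell by 0.93 on the log2 scale, and Ndufv1, the subunit that binds NADH, fell by 0.63. Ndufs8, another iron-sulfur subunit, did not pass (-0.23, adjusted p = 0.0624). The other members of complex I that did not pass were Ndufb11 (-0.36), Ndufc2 (-0.30), Ndufa1 (-0.14) and Ndufab1 (-0.09), the last being the mitochondrial acyl carrier protein. The smallest difference that passed was that of Ndufa2 (-0.32, adjusted p = 0.0165).

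Complex II, succinate dehydrogenase, is also an enzyme of the tricarboxylic acid (TCA) cycle, and 2 of its 3 measured subunits fell. Sdhb, the iron-sulfur subunit, lay at 10.20 and 10.41 in double heterozygote lesions and at 10.62, 10.25 and 10.28 in Prkar1a+/- lesions, against 11.22, 11.24, 11.01 and 11.08 in Prkaca+/- bone and 11.08, 10.75, 11.15 and 11.02 in WT bone. No lesion reached the lowest non-lesion sample, and the difference was -0.73 ± 0.11 (SE, limma adjusted p = 0.000166). Sdhc, a membrane anchor of the complex, fell by 0.87 on the log2 scale, also without overlap. Sdhd, the other membrane anchor, ranged from 11.04 to 11.62 in lesions and from 11.24 to 11.77 in non-lesion bone (-0.29, adjusted p = 0.0940). Sdhd overlapped between the groups, and it passed without Prkar1a+/- lesion replicate 1 (-0.38, adjusted p = 0.0272) and after scaling to the 75th percentile (-0.48, adjusted p = 0.0152).

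Complex III hands electrons from ubiquinol to cytochrome c, and 6 of its 8 members fell, with a median of -0.66. Uqcrc2, a core protein of the complex, lay at 11.93 and 12.03 in double heterozygote lesions and at 12.27, 11.58 and 12.01 in Prkar1a+/- lesions. It lay at 12.90, 12.99, 12.81 and 12.69 in Prkaca+/- bone and at 12.80, 12.40, 12.99 and 12.93 in WT bone. The highest lesion, Prkar1a+/- replicate 1, stayed below the lowest WT sample, and the difference was -0.85 ± 0.14 (SE, limma adjusted p = 0.000279). Uqcrb fell by 0.76 and Cyc1, the cytochrome subunit that passes electrons on to cytochrome c, also fell by 0.76 on the log2 scale. For Cyc1 the groups overlapped, since Prkar1a+/- lesion replicate 1 lay above WT replicate 2 (10.92). Uqcrfs1, the Rieske iron-sulfur protein, was detected on 11 arrays only and did not pass (-0.24). Uqcr10 did not pass through its brightest probe (-0.22, adjusted p = 0.0856), whereas its other probe did (-0.33, adjusted p = 0.0178).

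Cycs, the soluble carrier cytochrome c, lay at 8.51 and 8.94 in double heterozygote lesions and at 9.19, 8.16 and 8.77 in Prkar1a+/- lesions, against 9.56, 9.67, 9.53 and 9.39 in Prkaca+/- bone and 9.42, 9.23, 10.13 and 9.84 in WT bone. The highest lesion was just below the lowest WT sample. Cycs was 1.84-fold lower in the lesions (-0.88 ± 0.19 SE, limma adjusted p = 0.00195).

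Complex IV, cytochrome c oxidase, was the complex in which members moved in opposite directions. Of 13 members outside the muscle isoforms, 8 fell, 3 rose and 2 did not pass, with a median of -0.34. The falls were led by Ndufa4 (-0.87 ± 0.15 SE, adjusted p = 0.000498), which was first assigned to complex I and is now counted with complex IV, Cox5a (-0.85) and Cox7c (-0.74). Cox5a lay at 12.96 and 12.99 in double heterozygote lesions and at 13.26, 12.53 and 12.76 in Prkar1a+/- lesions, against 13.62 to 13.89 in Prkaca+/- bone and 13.49 to 14.06 in WT bone. The groups did not overlap. Cox4i1, the common form of the largest nuclear-encoded subunit, ranged from 13.49 to 13.96 in lesions and from 13.70 to 14.08 in non-lesion bone. Its difference of -0.10 did not pass (95% interval -0.36 to 0.15), although it passed after scaling to the 75th percentile (-0.41, adjusted p = 0.0204). Its isoform Cox4i2, detected on 12 arrays, gave 0.28 (adjusted p = 0.344). Cox6b1, which lies at the interface of the complex IV dimer, fell slightly (-0.34, adjusted p = 0.0261). That call was lost without Prkar1a+/- lesion replicate 2 (limma adjusted p = 0.0681) or 3 (0.0514). It was also lost without either double heterozygote lesion, where 1 array is left in that group. These runs concern the brightest probe of Cox6b1. Its other probe, detected on 13 arrays, fell by 0.53 on the log2 scale (limma adjusted p = 0.00160).

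The muscle isoforms of complex IV had the largest falls of the family. Cox7a1 lay at 10.53 and 10.69 in double heterozygote lesions and at 11.32, 7.65 and 9.86 in Prkar1a+/- lesions, against 12.98, 12.98, 12.11 and 12.80 in Prkaca+/- bone and 12.60, 11.89, 12.89 and 12.85 in WT bone. It was 5.76-fold lower in the lesions (-2.53 ± 0.46 SE, limma adjusted p = 0.000640). Cox8b lay at 11.86 and 11.71 in double heterozygote lesions and at 12.86, 9.17 and 11.22 in Prkar1a+/- lesions, against 13.25 to 13.68 in Prkaca+/- bone and 13.16 to 13.90 in WT bone. Its fall was 4.24-fold (-2.08 ± 0.44 SE, adjusted p = 0.00172). Cox6a2 lay at 12.83 and 13.08 in double heterozygote lesions and at 13.85, 10.51 and 12.51 in Prkar1a+/- lesions, against 13.95 to 14.33 in Prkaca+/- bone and 14.17 to 14.42 in WT bone. It was 3.00-fold lower (-1.59 ± 0.39 SE, adjusted p = 0.00477). In all 3 isoforms Prkar1a+/- lesion replicate 2 was lowest and replicate 1 highest among the lesions, and every lesion lay below every non-lesion sample. Mouse brown fat also uses Cox7a1 and Cox8b.

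Of the counterparts of these isoforms in other tissues, Cox6a1 and Cox8a rose and Cox7a2 fell. Cox6a1 lay at 12.04 and 12.32 in double heterozygote lesions and at 12.05, 12.58 and 12.42 in Prkar1a+/- lesions, against 10.82, 11.14, 11.19 and 11.30 in Prkaca+/- bone and 11.11, 11.37, 10.72 and 10.93 in WT bone. It was 2.28-fold higher in the lesions (1.19 ± 0.14 SE, limma adjusted p = 3.24e-05), and its other probe gave 1.22. Cox8a lay at 12.83 and 12.86 in double heterozygote lesions and at 12.62, 13.10 and 12.74 in Prkar1a+/- lesions, against 12.11, 12.02, 11.81 and 12.36 in Prkaca+/- bone and 12.15, 12.29, 11.85 and 11.82 in WT bone. Its rise was 1.72-fold (0.78 ± 0.13 SE, adjusted p = 0.000345), and in both genes all lesions lay above all other samples. Cox7a2, the counterpart of Cox7a1, ranged from 8.45 to 8.90 in lesions and from 8.77 to 9.27 in non-lesion bone and fell by 0.33 on the log2 scale (adjusted p = 0.0237). Its call was lost without Prkar1a+/- lesion replicate 2 (adjusted p = 0.0543) and without double heterozygote lesion replicate 1 (adjusted p = 0.119). Cox7a2l, a related protein that joins complexes III and IV into supercomplexes, did not pass (0.18, adjusted p = 0.140).

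Within each array, the log2 value of a muscle isoform minus that of its counterpart was taken, so that only its shift between groups is read. For Cox6a2 and Cox6a1 this difference averaged 0.28 ± 1.44 in lesions and 3.14 ± 0.34 in non-lesion bone (SD, n = 5 and 8), a shift of -2.86, or 7.27-fold (exact two-sided permutation p = 0.00155). For Cox7a1 and Cox7a2 it averaged 1.33 ± 1.44 and 3.65 ± 0.42, a shift of -2.32, or 4.99-fold. For Cox8b and Cox8a it averaged -1.47 ± 1.53 and 1.47 ± 0.41, a shift of -2.94, or 7.65-fold. In each of the 3 pairs all lesions lay below all non-lesion samples, which gives the smallest p that 5 against 8 arrays allow. By the permutation test it was 0.00155 each and 0.00155 after adjustment over the pairs. For Cox6a2 with Cox6a1 and for Cox8b with Cox8a, the full separation of each gene given above already fixed this p. For these pairs the p-value is therefore no further support, and only the size of the shift is read. For Cox7a1 with Cox7a2, Cox7a1 was fully separated by itself, and here too only the size of the shift is read.

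Cox6b2, a form of Cox6b1 known from testis, had the largest rise of the family. It lay at 7.27 and 6.85 in double heterozygote lesions and at 6.97, 6.11 and 7.38 in Prkar1a+/- lesions, against 4.94, 4.98, 5.40 and 5.57 in Prkaca+/- bone and 5.43, 5.41, 5.54 and 5.61 in WT bone. Every lesion was above every other sample, and the difference was 1.58 ± 0.19 (SE, limma adjusted p = 4.46e-05). The signal was weak: the probe was detected on 11 arrays, with 2 of 4 Prkaca+/- samples among them. Its other probe, detected on 4 arrays, gave -0.03 (adjusted p = 0.895).

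**Figure D2:**
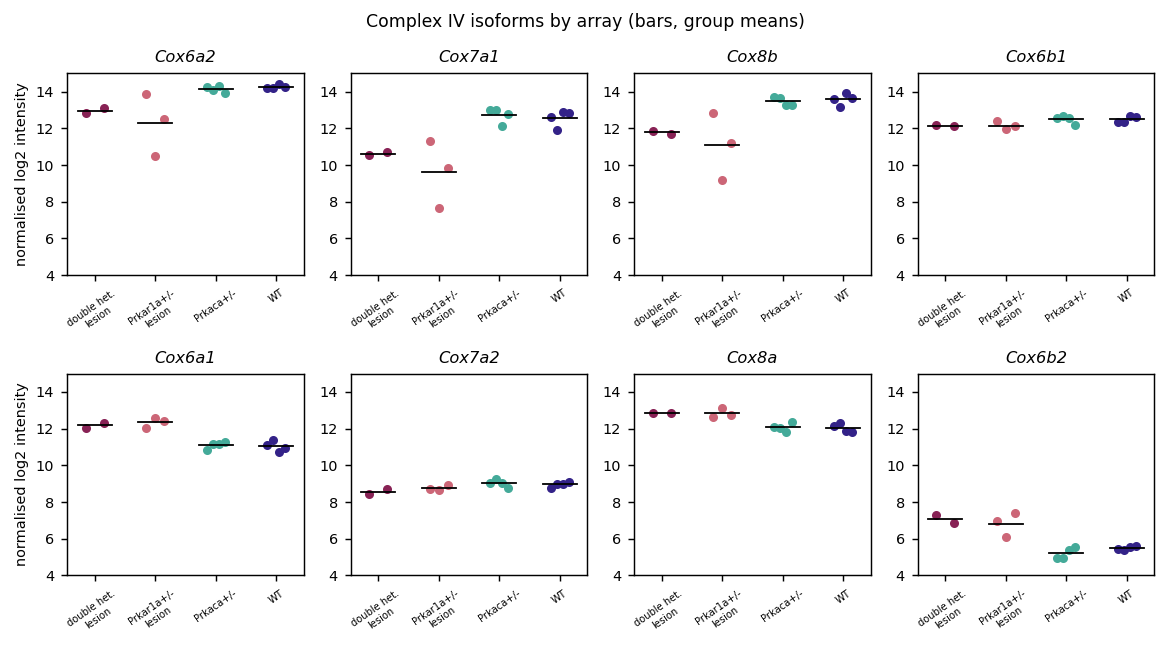
Normalised log2 intensity of complex IV isoforms on each array, by group, with group means as bars. In the upper row the muscle isoforms Cox6a2, Cox7a1 and Cox8b are lower in both lesion groups, down to 7.65 for Cox7a1, and in the lower row Cox6a1, Cox8a and Cox6b2 are higher in both lesion groups.

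The promoters of 2 counterparts that rose and of 2 muscle isoforms that fell are shown, since these genes moved in opposite directions within complex IV. Each window holds 250 bases before and 50 bases after the gene start, from RefSeq on GRCm38.p6, and capitals mark the motif matches found. Cox6a1 (chr5:115348909-115349208, minus strand) has 2 matches to the NRF-1 motif and 1 to the ETS motif. Cox8a (chr19:7217567-7217866, minus strand) has 2 ETS matches. Cox7a1 (chr7:30183921-30184220, plus strand) has no match to the 5 motifs searched, and Cox8b (chr7:140900397-140900696, minus strand) has 2 E-box matches. Cox6a2 had no entry in the promoter table.
Cox6a1: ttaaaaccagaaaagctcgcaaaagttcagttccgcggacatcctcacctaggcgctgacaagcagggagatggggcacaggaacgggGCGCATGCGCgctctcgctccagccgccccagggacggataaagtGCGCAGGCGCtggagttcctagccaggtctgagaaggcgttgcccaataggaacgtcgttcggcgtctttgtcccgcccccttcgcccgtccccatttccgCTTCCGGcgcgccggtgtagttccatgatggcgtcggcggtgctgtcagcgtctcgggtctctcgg
Cox8a: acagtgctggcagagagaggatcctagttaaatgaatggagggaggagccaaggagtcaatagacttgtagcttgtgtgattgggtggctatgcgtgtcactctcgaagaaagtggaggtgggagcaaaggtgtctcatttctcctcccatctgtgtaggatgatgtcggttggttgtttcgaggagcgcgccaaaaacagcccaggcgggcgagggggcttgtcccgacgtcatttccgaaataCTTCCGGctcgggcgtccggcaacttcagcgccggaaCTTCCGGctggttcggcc
Cox7a1: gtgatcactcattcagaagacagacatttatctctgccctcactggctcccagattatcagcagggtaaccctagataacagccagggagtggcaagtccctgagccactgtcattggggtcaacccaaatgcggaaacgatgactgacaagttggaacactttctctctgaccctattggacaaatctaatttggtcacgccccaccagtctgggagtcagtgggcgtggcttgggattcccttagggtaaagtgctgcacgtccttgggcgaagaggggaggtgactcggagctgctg
Cox8b: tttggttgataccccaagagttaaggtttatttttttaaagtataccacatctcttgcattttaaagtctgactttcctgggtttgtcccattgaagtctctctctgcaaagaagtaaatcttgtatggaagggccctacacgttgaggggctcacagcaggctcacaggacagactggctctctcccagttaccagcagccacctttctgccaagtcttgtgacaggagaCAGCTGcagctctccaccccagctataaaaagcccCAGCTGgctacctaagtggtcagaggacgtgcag

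The letters searched on both strands were GCGC, any 2 bases and GCGC for NRF-1, and CCGGAAG for ETS factors such as GABP, both known regulators of respiratory genes. TCAAGGTCA was searched for estrogen-related receptors (ERR), CAGCTG for E-boxes bound by myogenic factors, and TGACGTCA for the cAMP response element (CRE) bound by CREB. Of the 87 tested members 74 had at least 1 window, 79 windows in all. NRF-1 letters occurred in 26.6% of the members' windows, against 6.23% of 32851 mouse windows. ETS letters occurred in 25.3% against 8.86%, and E-box letters in 6.33% (5 windows) against 16.3%. ERR letters occurred in 2.53% against 0.423% and CRE letters in 5.06% against 1.79%, which rest on only 2 and 4 of the members' windows. Among the 63 windows of members that fell in the lesions, 17 held NRF-1 letters, 14 ETS letters, 1 ERR letters, 3 CRE letters and 5 E-box letters. The mouse windows cover 27025 genes, including genes not tested here, so the members were not set against other expressed genes. These matches describe letters only, and binding was not measured.

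Complex V, the ATP synthase, fell as a whole: all 16 members were lower and 0 higher, with a median of -0.56. Atp5g1, which encodes subunit c of the rotating membrane ring, lay at 12.32 and 12.28 in double heterozygote lesions and at 12.75, 11.88 and 12.20 in Prkar1a+/- lesions. It lay at 13.34, 13.29, 13.31 and 13.03 in Prkaca+/- bone and at 13.35, 12.87, 13.64 and 13.51 in WT bone. The groups did not overlap, and Atp5g1 was 2.01-fold lower (SE 0.16 on the log2 scale, limma adjusted p = 0.000280). The genes Atp5g2 and Atp5g3 encode the same mature subunit c, and fell by 0.74 and 0.36 on the log2 scale. Atp5pb, part of the peripheral stalk, fell by 0.87, and Atp5k, subunit e at the dimer interface, fell by 0.79. In the catalytic head Atp5b, the catalytic beta subunit, stood at 68.5% of its non-lesion level and Atp5a1, the alpha subunit, at 66.7%. Atp5b overlapped between the groups, at 14.12 to 14.87 in lesions and 14.75 to 15.18 in non-lesion bone. Whether the subunits of the complex differ from each other was not tested. Atp5j fell through its brightest probe (-0.78), while another of its probes did not pass (-0.24, adjusted p = 0.0609).

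Of the 10 assembly and related factors 5 fell and 0 rose, with a median of -0.47. Ndufaf5, an assembly factor of complex I, lay at 9.90 and 10.17 in double heterozygote lesions and at 10.22, 9.51 and 9.82 in Prkar1a+/- lesions, against 10.65 to 10.97 in Prkaca+/- bone and 10.75 to 10.95 in WT bone. No lesion overlapped with non-lesion bone, and the difference was -0.89 ± 0.12 (SE, limma adjusted p = 0.000102). Ndufaf7, a methyltransferase needed for complex I assembly, fell by 0.63, and Sdhaf3, an assembly factor of complex II, fell by 0.85. The other complex II factors Sdhaf1, Sdhaf2 and Sdhaf4 lay between -0.21 and -0.05 and did not pass.

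For 15 members more than 1 probe was tested. All probes of a gene had the same direction for 14 of them, and the same call for 11. The exceptions in call were Atp5j, Cox6b2, Ndufv3 and Uqcr10. For Ndufv3, a complex I subunit, the probes gave -0.78, -0.93 and -0.04, and only the last did not pass.

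The lesions differed among themselves, and their order was that of the mean level of skeletal muscle markers. Relative to the non-lesion mean, the median of the 74 subunits outside the muscle isoforms and assembly factors lay at -0.64 and -0.60 in the double heterozygote lesions and at -0.31, -0.85 and -0.80 in Prkar1a+/- lesions 1, 2 and 3. In the 8 non-lesion samples it lay between -0.22 and 0.14. The mean level of the 19 tested muscle markers was 12.71 and 12.79 in the double heterozygote lesions and 13.34, 10.29 and 12.34 in Prkar1a+/- lesions 1, 2 and 3, against 13.66 to 13.91 in non-lesion bone. The mean level of the 4 brown fat markers was 6.49 and 6.70 in the double heterozygote lesions and 6.85, 5.70 and 6.08 in Prkar1a+/- lesions 1, 2 and 3, against 6.72 to 7.87 in non-lesion bone. This mean had the same order, but of its genes only Cpt1b, which muscle also expresses, followed it. Ucp1 lay at 4.67 in Prkar1a+/- lesion 1 and at 6.45 in double heterozygote lesion 2, and Cidea and Dio2 also departed from that order. For the 7 white fat markers it was 7.34 and 7.50 in the double heterozygote lesions and 8.37, 6.59 and 7.85 in Prkar1a+/- lesions 1, 2 and 3, against 8.65 to 9.75 in non-lesion bone. The lesion with the smallest deviation of the subunits, Prkar1a+/- lesion 1, thus had the highest muscle, white fat and brown fat list means among lesions. The lesion with the largest deviation, Prkar1a+/- lesion 2, had the lowest of all 3 means. Of the 19 muscle markers 13 fell and 0 rose, led by the myosin Myh7 (-2.68) and the calsequestrin Casq1 (-2.44). Those that did not pass were Myh4, Acta1, Myl1, Atp2a1, Tnnc2 and Mb. All of these but Myh4 lay at 15.09 or higher in non-lesion bone. Mylpf, Tnni2 and Pvalb were about as bright there and fell. Whether these bright signals were saturated was not tested. Myh4 was detected on 12 arrays and each of the other muscle markers on all 13.

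The muscle isoforms showed the widest spread: their median deviation was -1.65 and -1.81 in the double heterozygote lesions and -0.66, -4.35 and -2.30 in Prkar1a+/- lesions 1, 2 and 3. Cox6a1 stood higher in every lesion, by 0.97 and 1.25 in the double heterozygotes and by 0.98, 1.51 and 1.35 in Prkar1a+/- lesions 1, 2 and 3. In Prkar1a+/- lesion 1, whose muscle signal was closest to non-lesion bone, the subunit median was below that of every non-lesion sample. Its muscle marker mean (13.34) was likewise below that of every non-lesion sample (lowest 13.66). The part of muscle in the subunit median of this sample was not tested.

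**Figure D3:**
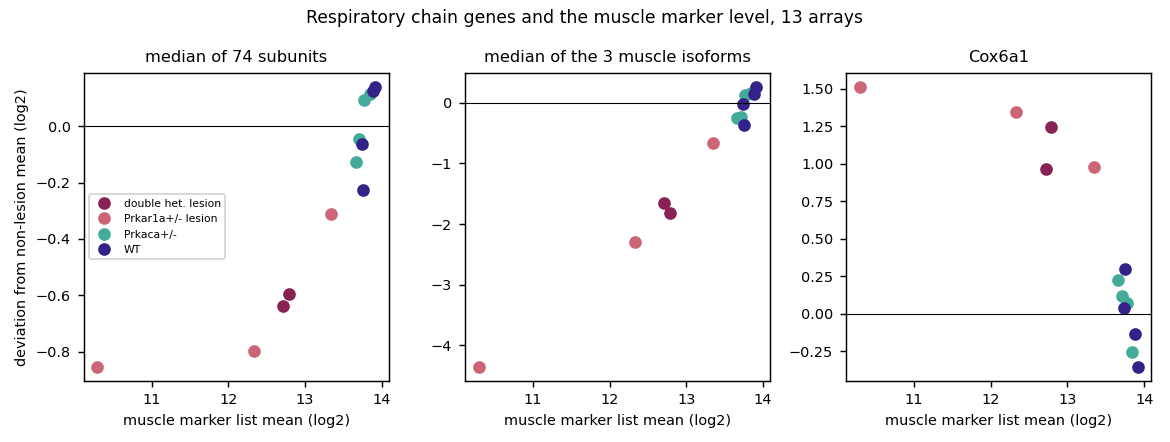
Deviation from the non-lesion mean (log2) of the median of 74 subunits, of the median of the 3 muscle isoforms and of Cox6a1, against the mean level of the muscle marker list, for 13 arrays. The lesion with a muscle mean of 10.29 lies lowest in the first and middle panels and highest in the last.

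When the mean level of the muscle markers was added to the fit as a covariate, 9 members fell and 2 rose between lesion and non-lesion bone, where over all genes 6.42% fell and 9.89% rose. The 9 were the complex I subunits Ndufa12, Ndufb3, Ndufb5, Ndufb7 and Ndufs4, with Sdhb, Cox7c, Ndufaf5 and Ndufaf7, and all 9 also fell without the covariate. Differences were negative for 81 of 87 members, with a median of -0.37, against 5925 of 10992 genes and a median of -0.04 over all genes. Cox6a1 (0.94, limma adjusted p = 0.00722) and Cox6b2 (2.02, adjusted p = 0.000277) still rose, while Cox8a was at 0.54 (adjusted p = 0.0578). The muscle isoforms did not pass, with Cox6a2 at -0.06 (adjusted p = 0.809), Cox8b at -0.40 (adjusted p = 0.176) and Cox7a1 at -0.83 (adjusted p = 0.0528). The covariate lies lower in all lesions than in all other samples, so this fit has few arrays from which to separate muscle signal and lesion. Its list mean also includes bright markers whose saturation was not tested, so the adjustment for muscle may be incomplete.

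Markers of other cell types moved with the lesions as well. All 7 white fat markers fell, led by Cidec and Lep. All 3 red cell markers fell, with a mean of 6.73 to 7.84 in lesions and 7.91 to 9.90 in non-lesion bone. Of 4 brown fat markers 2 fell, Cpt1b (-2.34), which muscle also expresses, and Cidea (-1.56, adjusted p = 0.000465), and 1 rose, Dio2 (0.32, adjusted p = 0.0290), which was detected on 2 arrays. Ucp1, the defining marker of brown fat, was detected on 6 of 13 arrays and did not pass (-0.39, adjusted p = 0.447). All 8 osteoblast markers rose, with a mean of 12.66 to 13.31 in lesions and 9.36 to 10.62 in non-lesion bone. Of 9 osteoclast markers 7 rose, with a mean of 9.03 to 9.70 in lesions and 7.01 to 7.72 in non-lesion bone. Among these 7, Ocstamp was detected on 3 arrays only, Calcr on 4, Dcstamp on 9 and Oscar on 12, so their rises partly rest on values near background. Of 6 macrophage markers 3 rose, and their mean overlapped, at 9.17 to 10.23 in lesions and 8.43 to 9.92 in non-lesion bone. Among lesions this mean was lowest in Prkar1a+/- lesion 1 and highest in Prkar1a+/- lesion 2. The part of fat, blood and bone cells in the values of the respiratory chain was not tested.

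The lesion comparison was also made within each Prkaca genotype, with no array shared between the comparisons. In Prkar1a+/- lesions against WT bone, 61 members fell and 3 rose, where over all genes 19.3% fell and 20.7% rose, and the median was -0.65. Lesion and WT samples did not overlap for 46 lower and 3 higher members, against 20.1% lower and 21.4% higher over all genes. In double heterozygote lesions against Prkaca+/- bone, 47 members fell and 3 rose, where over all genes 13.5% fell and 15.5% rose, and the median was -0.62. Here the groups did not overlap for 71 lower and 3 higher members, against 26.1% lower and 25.7% higher over all genes. The 3 that rose were Cox6a1, Cox8a and Cox6b2 in both comparisons. The 61 falls became 36 without Prkar1a+/- lesion replicate 2, and the 47 falls became 28 without Prkaca+/- replicate 1. Fewer members passed without either double heterozygote lesion, where 1 array is left in that group and its counts are not read. The shares over all genes were not taken for these runs, so the losses cannot be called particular to the members. With the muscle covariate 0 members fell against WT bone (0.764% of all genes) and 8 fell against Prkaca+/- bone (5.32% of all genes).

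Member by member the comparisons lay close together. The sign was shared by 86 of 87 members (98.9%, against 85.7% of all genes), and Pearson's r was 0.936 across members and 0.856 across all genes, a description over genes that are not independent. Cox6a1 gave 1.07 in double heterozygote lesions against Prkaca+/- bone and 1.32 in Prkar1a+/- lesions against WT bone. Cox8a gave 0.77 and 0.80 in the same order. Cox7a1 gave -2.11 (adjusted p = 0.0382) in the double heterozygote comparison and -2.95 (adjusted p = 0.00259) in the Prkar1a+/- comparison. Cox8b gave -1.68 (adjusted p = 0.0745) and -2.49, and Cox6a2 gave -1.21 (adjusted p = 0.143) and -1.97. The difference between both effects passed for 0 members by limma, and 0 members had an unadjusted p under 0.05, where over all genes 0 passed and 281 had such a p. For Cox7a1 this difference was 0.84, with a 95% interval of -1.16 to 2.84, which covers differences of either sign.

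**Figure D4:**
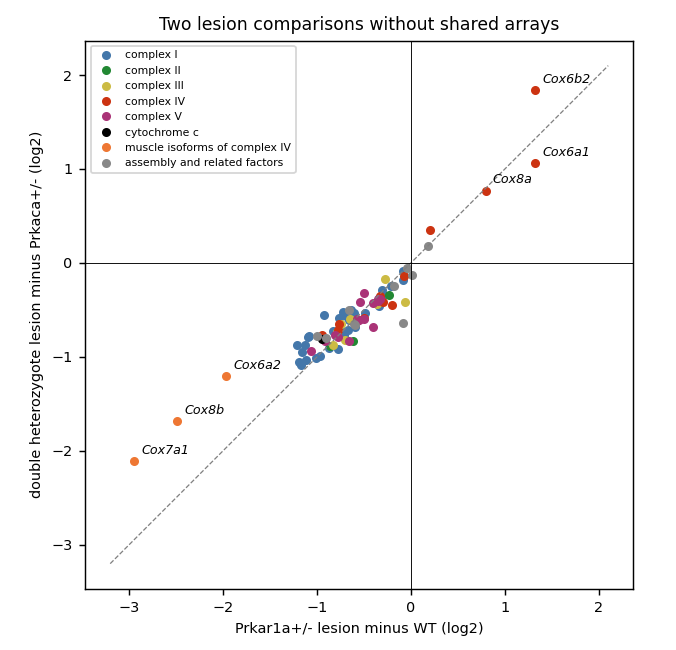
Log2 difference of each of the 87 members in Prkar1a+/- lesions against WT bone (x axis) and in double heterozygote lesions against Prkaca+/- bone (y axis), coloured by complex, with the line of equality dashed. Points lie along the line, with Cox6a1, Cox8a and Cox6b2 above 0 on both axes and the muscle isoforms at the low end.

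The Prkaca allele alone changed no member past the threshold. In Prkaca+/- against WT bone 0 of 87 members passed in limma, and 0 had an unadjusted p under 0.05, where over all genes 0 passed and 168 had such a p. Differences ran from -0.28 (Cox6b2) to 0.32 (Ndufaf3), with a median of 0.01. The 95% interval was -0.29 to 0.45 for Cox6a1 and -1.06 to 1.38 for Cox7a1. In double heterozygote against Prkar1a+/- lesions 0 members passed in limma and 0 had an unadjusted p under 0.05, where over all genes 0 passed and 384 had such a p. The differences ran from -0.23 to 1.00. The largest was that of Cox7a1, with a 95% interval of -0.58 to 2.58.

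Most genes that feed the respiratory chain fell as well, where over all genes tested 25.8% fell and 26.2% rose. Of 13 TCA cycle genes 11 fell and 1 rose, with a median of -0.73, led by citrate synthase (Cs, -1.11) and Ogdh (-1.04), a subunit of the oxoglutarate dehydrogenase complex. Idh3b, a subunit of isocitrate dehydrogenase, rose (0.64). All 7 genes of pyruvate entry fell, with a median of -1.07, led by the pyruvate dehydrogenase kinases Pdk4 (-3.50) and Pdk2 (-2.15), which inhibit that enzyme. All 13 genes of fatty acid oxidation fell, with a median of -0.69, led by Cpt1b (-2.34), the muscle form of carnitine palmitoyltransferase, and Acadl (-1.34). Among 12 carriers 8 fell and 2 rose. The falls were led by the mitochondrial creatine kinase Ckmt2 (-2.35) and the uncoupling protein Ucp3 (-2.09), both typical of muscle. The ADP/ATP carrier Slc25a5, the form of proliferating cells, rose (1.22), as did the aspartate/glutamate carrier Slc25a13 (0.95). Like Cox6a1, Slc25a5 was without overlap, with no lesion below the highest non-lesion sample (12.17).

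Of 21 assembly factors outside the name rule 12 fell and 0 rose, with a median of -0.37, led by Ecsit (-1.18) and Acad9 (-0.74), both needed for complex I assembly. Of 70 genes of the mitochondrial ribosome, which translates the mitochondrially encoded subunits, 38 fell and 4 rose, with a median of -0.34. Their falls were led by Mrpl42 (-1.16) and Mrpl1 (-0.99), and their rises by Mrpl52 and Mrpl17. Of 15 regulators of mitochondrial genes 7 fell and 2 rose, where over all genes tested 25.8% fell and 26.2% rose. Esrrb, an estrogen-related receptor, fell by 2.28 and Ppargc1a, the coactivator PGC-1α that drives mitochondrial biogenesis, fell by 2.21 on the log2 scale, while Nrf1 (0.38), which encodes the NRF-1 factor, and Gabpb1 (0.47), which encodes a partner of the ETS factor GABPA, rose. Ppargc1a overlapped between the groups, at 4.82 to 7.93 in lesions and 7.10 to 9.06 in non-lesion bone.

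**Figure D5:**
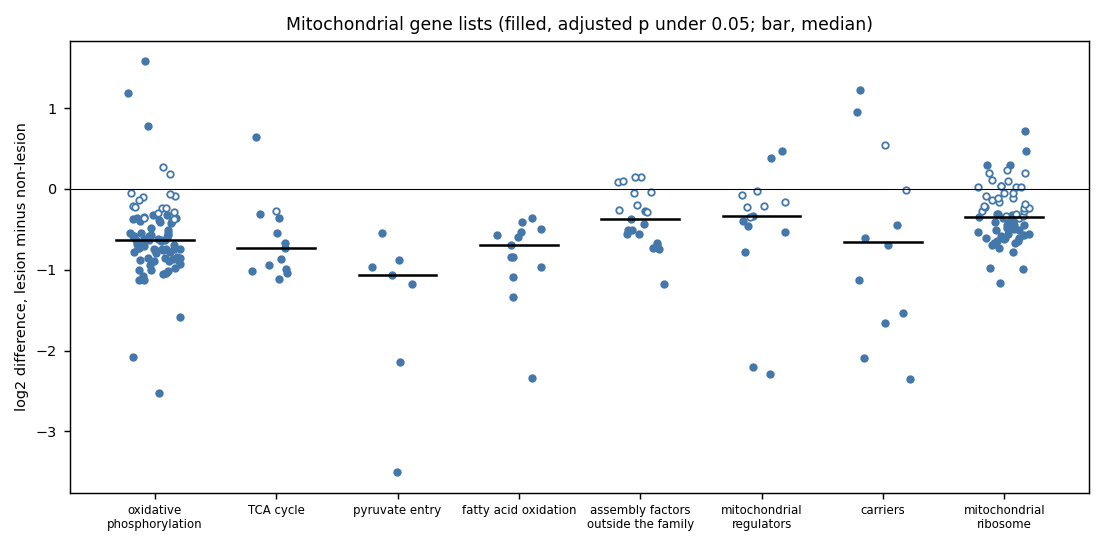
Log2 difference between lesion and non-lesion bone for the genes of the oxidative phosphorylation family and of 7 other mitochondrial lists, with medians as bars and filled points where the adjusted p is under 0.05. Each median lies below 0, and pyruvate entry has the lowest (-1.07).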

How the data were processed

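RNA of 13 samples was hybridised to Illumina arrays. Per the file headers, the deposited table gives each of 25697 probes a signal intensity and a detection p-value on every array, with the intensity empty above a p-value of 0.1. The authors' other deposited table holds scores that follow a straight line of each array's intensity, and served as an alternative only. The number of probes detected (detection p-value under 0.01) was 13555 to 14831 per array, and the number of arrays limits the precision. The sources used here do not give the scanner software.

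Each array's background mean and SD were estimated by regressing intensity on detection p-values turned into normal quantiles (r from 0.972 to 0.997), and the same line filled empty intensities. Normexp correction, an offset of 16, quantile normalisation and log2 followed. Fold changes of dim probes are understated by the offset. Probes detected on at least 2 arrays were kept, 16226 in all. A gene was represented by its brightest tested probe. The platform annotation named 23978 probes and left 1719 unnamed.

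Group means were compared with limma 3.58.1 under R 4.3.3 (4 group means, 9 residual degrees of freedom), with Benjamini-Hochberg adjustment over all tested probes at 0.05. Lesion against non-lesion averages the lesion groups and sets them against the average of the others. All adjusted p-values of genes are from limma, and the scripts were tested on simulated data. Muscle isoforms were compared with their counterparts by an exact permutation test. Promoters were read from a RefSeq table of GRCm38.p6. Alternatives covered background, offset, normalisation, detection filter, probe choice, deposited scores, muscle covariate, replicate block and leaving out each array.

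Named genes were the tissue isoforms, Sdh subunits, Cyc1 and Cycs, the 3 largest rises and falls past the threshold per complex and comparison, the 2 largest per other list, and Prkar1a, Prkaca and Ppargc1a. Other members are named by their role or because they did not pass, and were chosen after their values were seen. Members and lists were chosen with earlier results of these data known.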

Additional observations from a re-analysis of the deposited data

Results flagged for a closer look

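In 1 of 74 groups of 4 arrays checked, among the named members and the medians by complex, a sample stood apart from the other 3 beyond Dixon's critical value. Chance flags about 1 in 20 groups. Atp5g1, a gene of subunit c of the ATP synthase, lay at 13.03 in Prkaca+/- replicate 4, below the other Prkaca+/- samples, which lay between 13.29 and 13.34. The value was still above the lesions, the highest of which reached 12.75.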

How the results depend on the processing

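No named member that passed, complex median or isoform shift changed sign under any alternative run. Among members that did not pass, Cox7a2l changed sign after scaling to the 75th percentile, Cox4i2 with the deposited scores and Ndufa1 with the muscle covariate (0.01), each without passing. In lesion against non-lesion bone, 3 members rose and 66 to 73 fell when each array was left out in turn. The falls numbered 36 to 67 in Prkar1a+/- lesions against WT (lowest without Prkar1a+/- lesion replicate 2). In double heterozygote lesions against Prkaca+/- bone they numbered at most 58, and 28 without Prkaca+/- replicate 1. Fewer members passed without either double heterozygote lesion, where 1 array is left in that group. Shares over all genes were not taken for the runs with an array left out or a replicate block, so their counts do not set members apart from other genes. Medians ran from -0.83 to -0.67 for complex I, -0.79 to -0.68 for II, -0.75 to -0.60 for III, -0.39 to -0.30 for IV, -0.65 to -0.50 for V, -0.55 to -0.39 for assembly factors and -2.53 to -1.61 for muscle isoforms. Scaling to the 75th percentile gave medians of -0.89 for complex III, -0.57 for IV and -0.78 for V, and -0.86 over all members, while the median of all genes was -0.02. With the muscle covariate the falls numbered 9, 0 against WT and 8 against Prkaca+/- bone, with medians of -0.43 for complex I, -0.44 for III, -0.33 for V and -0.40 for muscle isoforms, and 17 named members lost their call. The isoform shifts ran from -3.25 to -2.28 (Cox6a2), -2.65 to -1.74 (Cox7a1) and -3.36 to -2.32 (Cox8b) when an array was left out, with adjusted permutation p-values up to 0.00404. With the deposited scores Cox7a2 did not pass (adjusted p = 0.0742) and Cox7a2l did (0.0209). Whether replicate numbers pair the samples was not settled. Deviations of same-numbered samples correlated between -0.244 and 0.358, with a median of -0.0124, against 0.00605 for other pairs. The highest values, 0.358 and 0.321, were of same-numbered samples, and 5 of 13 arrays correlated best with their own number. Deviations of the 2 double heterozygote lesions mirror each other, which fixes part of these values. With the replicate block 71 members fell and 3 rose in lesions, 56 and 3 against WT and 33 and 3 against Prkaca+/- bone, and Sdhd passed (-0.39, adjusted p = 0.0210). The causes of these shifts were not tested. Complex II and 3 isoform pairs rest on few members, and Cox6b2, Cox4i2 and Uqcrfs1 lie close to background.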
